A study of Mus musculus with 12 samples.

Results

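VCL codes for vinculin, a cytoplasmic protein of cell-matrix and cell-cell adhesions. RbFox1 eCLIP gave 29 peaks on the + strand over the VCL gene body (hg38, chr10:73998116-74121363), out of 24831 human peaks in all. The peaks were chosen by their presence in the list of RbFox1-expressing cells over cells without RbFox1, and the run of peaks near the gene end was selected on its density in that same list. Number, enrichment and p of these peaks are therefore given as a description with no test.

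Vinculin binds talin at integrin adhesions and α-catenin at cadherin junctions, and its tail holds on to actin filaments. The gene makes 2 proteins by alternative splicing, vinculin and the longer metavinculin, which is found in muscle and contains an extra stretch in the tail encoded by an exon in the 3′ part of the gene. RbFox1 is a splicing regulator of brain, heart and skeletal muscle. It binds (U)GCAUG in pre-mRNA through its RNA recognition motif, and RbFox binding downstream of an alternative exon is known to favour inclusion of the exon, while binding upstream is known to favour skipping.

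The cells were a single clone of T-REx-293. T-REx-293 is a human embryonic kidney line in which RbFox1 is switched on by doxycycline, and the clone also carries the mouse TrkB-BAC minigene in its full form, Cluster 1 and Cluster 2 included. The groups behind the human peaks were 2 immunoprecipitated libraries of this clone given doxycycline for 48 h (+Dox) and 2 of the untreated clone (No Dox), so both carry the minigene and the inducible RbFox1. The dose was 0.5 mg/ml by the sample labels and 0.5 μg/ml by the figure legends. The study also holds 2 +Dox libraries of another clone, whose minigene lacks both clusters, and 6 input libraries, which the labels all give as untreated controls without naming the immunoprecipitate each belongs to, and neither is named as a side of the human comparison.

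In eCLIP, RNA crosslinked to a protein by ultraviolet light is pulled down with an antibody and sequenced. For each peak called in the +Dox libraries, the authors divided the normalized reads of the +Dox by those of the No Dox immunoprecipitates, which gives the log2 fold enrichment, and computed a p. The list holds 1 value a peak and none for single replicates, so neither the read depth nor the spread between replicates can be stated. The list starts at 3.0 both for the log2 fold enrichment and for the −log10 p, and the file is named as one of IDR peaks, a measure of reproducibility between replicates. A stretch without a listed peak has no value, which does not show that its enrichment was under these limits. More RbFox1 bound per transcript and more VCL RNA in the +Dox cells cannot be told apart from these values.

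The 29 peaks fell into a group of 6 and a run of 23, with no other same-strand peak anywhere in the 123248 nt of the gene body. The first 78052 nt held none. The group of 6 lay at chr10:74076168-74076810, starting 63.3% of the way along the gene, and the run at chr10:74112146-74113945, between 92.5% and 94.0% of the way along. Between both lay 35335 nt without a peak, and 7418 nt without a peak followed the run, so the run stood near the end of the gene and not at it. No peak on the − strand fell in the gene body.

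The run was 1800 nt long. That is 1.46% of the gene body, and it held 79.3% of the gene's peaks and 74.7% of the bases under peaks. Its density was 12.8 peaks per kb, beside 9.33 in the group of 6 and 0.235 over the whole gene body. Exons, introns and untranslated regions of human VCL, and the bases under its peaks, were not analysed here. The distance of the run from the metavinculin exon and its (U)GCAUG motifs are therefore left out.

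**Figure D1:**
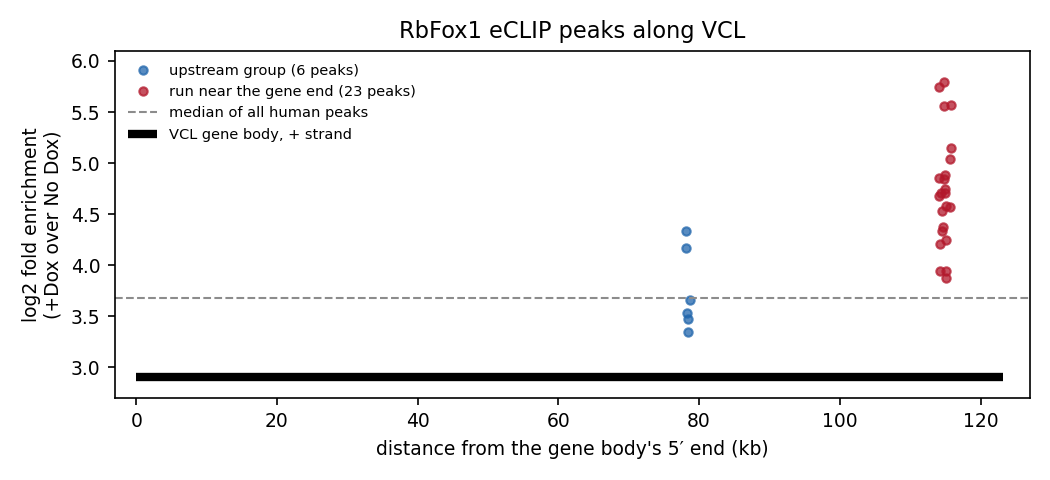
Log2 fold enrichment (+Dox over No Dox, y axis) of each VCL peak against its distance from the 5′ end of the gene body in kb (x axis). Points are single peaks, the black bar is the gene body and the dashed line is the median of all human peaks (3.68). The 29 peaks stand at 2 places, and the 23 of the run reach 5.79 while the 6 of the upstream group stay at or under 4.33.

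The nearest same-strand peaks outside the gene body were located on both sides, and how usual their distances are in the list was not computed. The nearest before the gene body ended at 73793687, 204428 nt before it, with a log2 fold enrichment of 4.58 and a −log10 p of 23.4. The nearest after it began at 74466113, 344749 nt past its end, with 3.33 and 9.51. The first peak inside the gene body, at 74076168, had 4.33 and 15.3, and the last, ending at 74113945, had 5.15 and 46.4. Moving either border of the gene body outward by less than these distances would therefore leave the same 29 peaks.

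Within the run the enrichment rose and fell several times. All 23 peaks were above the median of the whole list (3.68) and 20 were above its upper quartile (4.14). The lowest log2 fold enrichment of the run was 3.87, which is 14.6-fold, the median 4.71 (26.1-fold, quartiles 4.36 and 4.96) and the highest 5.79 (55.5-fold). In 6 of the 23 peaks it was at least 5, and the lowest of the 6, 5.04, was reached or passed by 990 peaks of the list (3.99%). The run was chosen from this same list, so nothing is read from these counts. With positions counted from 1 at the first base of the run, the 6 peaks of at least 5 lay at 3 places, near its start, near its middle and at its end.

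The run opened with a pair of abutting peaks. The first, at positions 1 to 52, had a log2 fold enrichment of 4.86 and the second, at 53 to 71, had 5.74. At 19 nt the second is one of the narrowest peaks of the run, and its enrichment of 53.5-fold was reached or passed by 136 of the 24831 peaks of the list. The peaks that followed were lower. In order from position 91 to position 365 their log2 fold enrichments were 4.68, 3.94, 4.21 and 4.71, with widths of 61, 62, 102 and 22 nt.

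From position 381 to 755 came 4 abutting peaks, 375 nt without a break. Their log2 fold enrichments were 4.53, 4.33, 4.38 and 4.85 in order from the 5′ side. The first 3 of them, of 119, 87 and 140 nt, had a −log10 p of 400, the ceiling of the list. This stretch was thus the longest unbroken one in the run, and its 3 peaks at the ceiling were below the median of the run in enrichment.

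The highest peak of the run followed at positions 784 to 820. Its log2 fold enrichment was 5.79, and 118 of the 24831 peaks of the list were at or above it. The next, at 821 to 869, had 5.56 and a −log10 p of 400. From there on the values were lower. They were 4.89 and 4.71 for the 2 peaks up to position 933, and 4.75, 4.58, 3.87, 4.24 and 3.94 for the 5 abutting peaks from 935 to 1107. The lowest peak of the run, at 1032 to 1059, thus began 211 nt after the end of the highest.

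After position 1107 came 429 nt without a peak, the longest gap in the run. The last 4 peaks abutted one another from 1537 to 1800, a stretch of 264 nt. They had log2 fold enrichments of 4.57, 5.04, 5.57 and 5.15 in order. The peak of 5.57, at 1667 to 1756, was 90 nt wide and had a −log10 p of 400, and 233 peaks of the list were at or above it. The enrichment was therefore highest in the inner part of this last stretch and lower at both of its borders.

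The highest peaks of the run's start, middle and end had log2 fold enrichments of 5.74, 5.79 and 5.57. Their centres were 740 nt and 910 nt apart. Cutting the run into 3 equal stretches of 600 nt by peak centre, a division chosen after the values were seen, gave medians of 4.61 over 8 peaks, 4.71 over 11 and 5.09 over 4. Each stretch spanned a wide range, from 3.94 to 5.74 in the first, from 3.87 to 5.79 in the second and from 4.57 to 5.57 in the third.

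**Figure D2:**
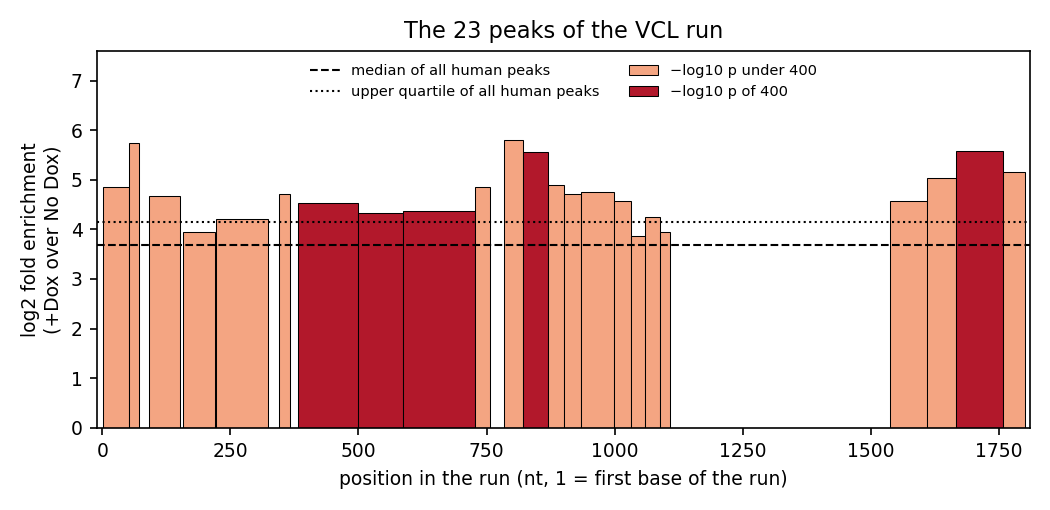
Log2 fold enrichment (y axis) of the 23 peaks of the VCL run against position in nt from the first base of the run (x axis). Each bar is 1 peak with its true width, dark bars have a −log10 p of 400 and the lines are the median (3.68) and upper quartile (4.14) of all human peaks. High bars stand near the start, near the middle and near the end, with a gap of 429 nt before the last 4.

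Most peaks of the run touched the next. Of its 23 peaks, 14 began on the base after the previous one ended, 7 began after a gap of 1 to 28 nt and 1 after the gap of 429 nt. Joined where they abut, the 23 peaks made 9 unbroken stretches, of which 4 were single peaks. Peaks covered 1280 of the 1800 nt, or 71.1%. Across the 14 abutting pairs the log2 fold enrichment changed by a median of 0.40 from one peak to its neighbour, from 0.04 to 0.89. The 6068 abutting pairs of the whole list changed by a median of 0.35 (quartiles 0.17 and 0.62), and the median step along VCL lay between these quartiles. Abutting peaks divide 1 stretch of RNA and are not separate measurements of binding.

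The peaks of the run with the lowest p were mostly wider than its median of 49 nt, while those with the highest enrichment were mostly not. The median width over the whole list was 82 nt. In the run, 5 of 23 peaks had a −log10 p of 400, beside 2.05% of the list (510 peaks). The run was chosen from this same list, so nothing is read from that share. No peak of the list lay between 150.5 and 400, so peaks at 400 cannot be ranked by p. The 5 peaks at 400 were 49 to 140 nt wide (median 90 nt), their enrichments lay between 4.33 and 5.57 on the log2 scale, and the other 18 were 19 to 102 nt wide (median 35 nt). Across the 23 peaks, Spearman's rho of width with −log10 p was 0.62 and of width with log2 fold enrichment -0.12. Over the whole list these were 0.04 and -0.02. The peaks share libraries and a transcript, so the values describe the run only, and the part of read number in them was not tested. The widest peak of the run, 140 nt at positions 587 to 726, had a −log10 p of 400 with an enrichment of 4.38, while the highest in enrichment, 37 nt wide, had 65.0.

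The upstream group was shorter and weaker. Its 6 peaks lay within 643 nt, 39 to 111 nt wide. The first, which ends at 74076216, reached a log2 fold enrichment of 4.33 with a −log10 p of 15.3, and the second, which abuts it and ends at 74076306, had 4.17 and 20.8. Both were the highest of the group. The other 4 were under the median of the whole list, at 3.53, 3.35, 3.47 and 3.65, with −log10 p of 11.1, 13.3, 7.86 and 14.0. The enrichment in this group was therefore highest on its 5′ side.

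Set side by side, the run had a median log2 fold enrichment of 4.71 and the upstream group one of 3.59, a difference of 1.12, or 2.17-fold. The values overlapped. Of the 23 peaks of the run, 18 were above the highest of the upstream group (4.33) and 5 were below it. The −log10 p did not overlap, with 23.7 as the lowest of the run and 20.8 as the highest of the upstream group. The median of the whole list was 10.2, and the share of the list above 20.8 was not computed. With the limits raised to 4 for the log2 fold enrichment and 1e-05 for p, 20 of 23 in the run and 2 of 6 in the upstream group passed, beside 29.0% of all human peaks. The run was picked from this contrast for its many peaks, so nothing is read from these shares or from the −log10 p that did not overlap. Among peaks that passed, the difference of medians was 0.48.

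**Figure D3:**
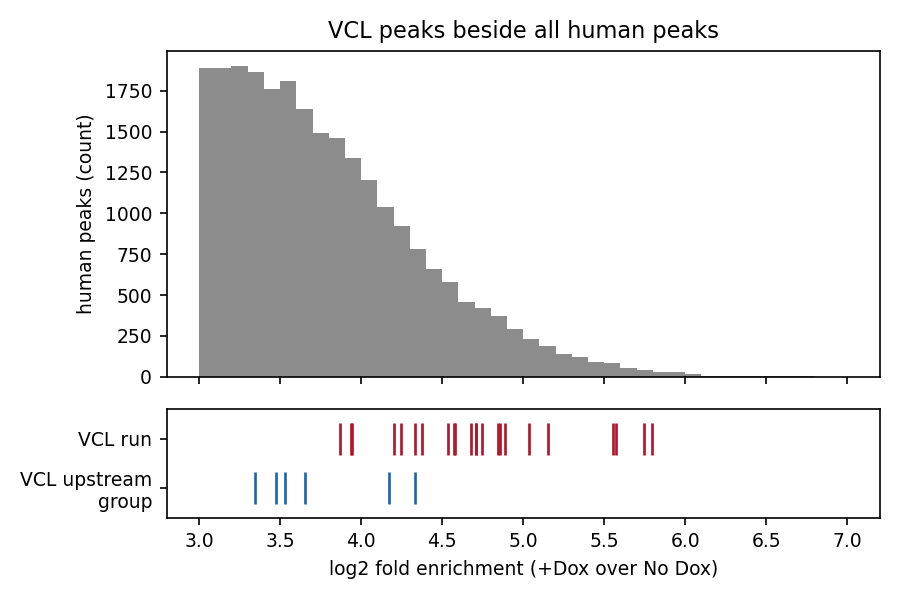
The upper panel counts all 24831 human peaks by log2 fold enrichment (x axis, bins of 0.1), and the marks in the lower panel are the single VCL peaks of the run and of the upstream group. The run begins at 3.87, to the right of the list's median of 3.68, and 4 of the 6 upstream peaks lie to the left of that median.

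The run was also placed among all groups of the list. Taking same-strand peaks with at most 500 nt between them as 1 group gave 9787 groups, and the VCL run was exactly 1 of them, with the borders given above. By number of peaks, 2 groups were larger, with 54 and 35 peaks, and 3 others also had 23, so VCL shared ranks 3 to 6. On chromosome 10 it had the most of 581 groups, and the next had 22. The run was chosen for its many peaks in this same list, so nothing is read from its place. The place counts peaks as they were called, and those of the run were narrow, with a median of 49 nt beside 82 nt over the list. Joined where they abut, VCL had 9 stretches, and the other groups of 23 had 12, 8 and 9 (chromosomes 12, 20 and 22). Ranks by stretches were not computed. The place also depends on the distance that joins peaks. At 100 nt the gap of 429 nt cut the last 4 peaks off, the remaining 19 shared ranks 5 to 8, and at 1000 nt the 23 peaks shared ranks 6 to 8.

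Among the 189 groups of at least 10 peaks, the VCL run ranked 27 by median log2 fold enrichment and 22 by its highest peak. The medians of these groups ran from 3.18 to 6.22, and the middle of them was 4.07. By its lowest peak VCL ranked 19, a place that also depends on the number of peaks in a group. These values come from the list that chose the run, so nothing is read from the ranks. The run was long, ranking 9 by span, where the middle group spanned 970 nt. Its density of 1.28 peaks per 100 nt was close to the middle value of 1.22 (rank 80), and the 71.1% of bases under peaks was below the middle value of 75.9%. Span, density and share all count the gap of 429 nt in, and their ranks without it were not computed. The upstream group was 1 of 326 groups with 6 peaks, and its median of 3.59 lay between their lower quartile (3.53) and their middle (3.82).

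**Figure D4:**
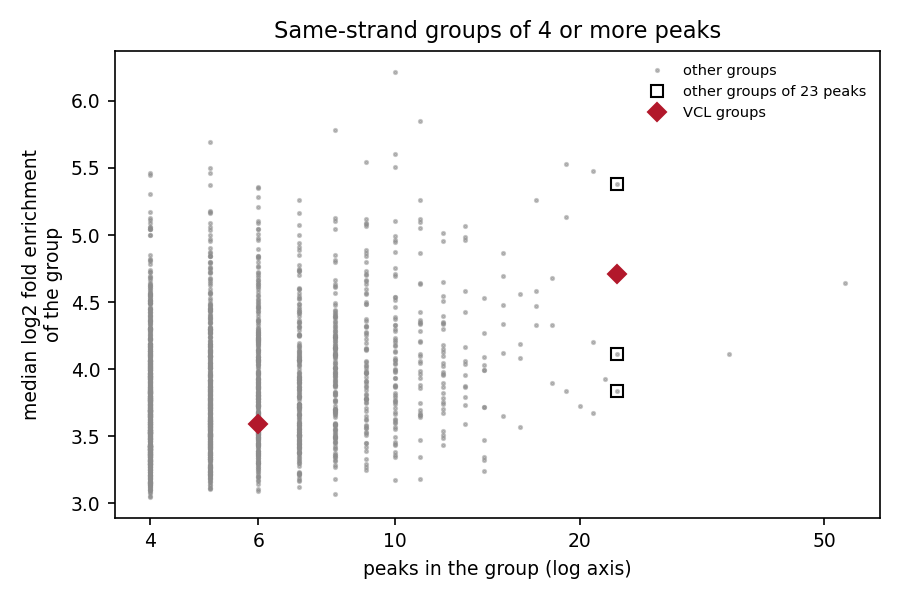
Median log2 fold enrichment (y axis) against the number of peaks (x axis, log scale) for the 2138 same-strand groups of at least 4 peaks. Red diamonds are the 2 VCL groups, at 6 peaks with 3.59 and at 23 peaks with 4.71, and open squares are the other 3 groups of 23 peaks, of which 1 lies above VCL and 2 below.

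The 3 other groups of 23 peaks, all on the + strand, were set beside VCL for the shape of the run. They lie at chr22:40966790-40967733, chr20:25285247-25286907 and chr12:110346320-110347843. The chromosome 22 group had a median log2 fold enrichment of 5.38 with a range from 3.70 to 6.70. On chromosome 20 the median was 4.11, from 3.53 to 4.91, and on chromosome 12 it was 3.84, from 3.22 to 5.04. With its median of 4.71, VCL thus stood second of the 4, and its lowest peak of 3.87 was the highest of the 4 lowest values.

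VCL had the longest span of the 4, 1800 nt beside 944 nt on chromosome 22, 1661 nt on chromosome 20 and 1524 nt on chromosome 12. Its gap of 429 nt was also the longest, where the others had longest gaps of 66, 72 and 226 nt. The share of bases under peaks was 86.9%, 84.5% and 71.5% in these groups and 71.1% in VCL. Span and share depend on the distance that joins peaks. At 100 nt the last 4 VCL peaks were cut off, and the other 19 end at position 1107, short of the 1661 nt on chromosome 20. The longest gap there, 72 nt, stays joined at 100 nt. The shares were not recomputed at 100 nt. A −log10 p of 400 was reached by 2 of 23 peaks on chromosome 22, by 0 on chromosome 20 and by 15 on chromosome 12, where VCL had 5. Order by enrichment and order by peaks at that ceiling thus differed, with the chromosome 12 group last in the first and first in the second. These 4 groups were not tested against each other, since all values come from the list that chose them and peaks of 1 transcript are not replicates.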

How the data were processed

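eCLIP was measured in 12 libraries. Per the methods, the authors cut off molecular identifiers and adapters, set aside reads of repeats and rRNA, and aligned what was left with STAR to hg38 plus the minigene. PCR duplicates were collapsed with umi_tools, and CLIPper called the peaks. The deposited lists give, for each peak over both replicates, a −log10 p-value from a chi-square test with Yates' correction (Fisher's exact test at low counts). The deposited log2 fold enrichment compares reads per library size between conditions. The human list is named as one of IDR peaks (irreproducible discovery rate, a measure of agreement between replicates), and its settings are not given in the sources used here. The human list was used. The 2 minigene lists hold no human transcript and were not used. The lists have no counts and no column for single libraries, so depth is unknown and conditions were not compared by any test.

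Positions were converted to count from 1. Same-strand peaks at most 500 nt apart formed a group (alternatives 100 and 1000 nt), and the grouping was tested on simulated data. A stricter threshold, joined abutting peaks, both strands, width weights and means were the other alternatives. Python 3.11.15, pandas 2.3.3, numpy 2.4.6, scipy 1.17.1 and matplotlib 3.10.9 were used. The members, borders and lists were chosen with earlier results of these data known. The rule for named items was VCL with its peaks and the 2 or 3 groups nearest to its run in number of peaks, and a list of adhesion genes was also set. Motifs, exons and the adhesion genes were not analysed here, since no human genome or annotation was used. The paper's own list of human (T)GCATG clusters was not used either.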

Additional observations from a re-analysis of the deposited data

How the results depend on the processing

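No paired analysis was possible because the list holds 1 value per peak and none for single replicates, and leaving out 1 replicate was not possible either. Joining abutting peaks lowered the VCL peaks from 29 to 13 and those of the run from 23 to 9, which is its construction. The stricter threshold left 22 VCL peaks, 20 of them in the run, and counting both strands left 29. Rebuilding the run at 100 nt left 19 peaks and at 1000 nt 23. The difference of median log2 fold enrichment between run and upstream group was 1.12, and it was 0.48 at the stricter threshold, where 2 upstream peaks remained, 0.92 with peaks weighted by width and 0.98 with means. It kept its direction in these 3 alternatives. The run's rank by number of peaks went from 3 (shared to 6) to 5 at 100 nt (shared to 8) and 6 at 1000 nt (shared to 8). Alternatives for motifs and adhesion genes were not run. The unknown depth limits every value, since too few reads can also leave a stretch without a peak.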
